A study of Mus musculus with 4 samples.

Results

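Myeloid blood cells are steered by receptors for colony-stimulating factors and interleukins, and the transcripts of 10 such receptor genes were compared here between hematopoietic stem cells and the progenitors that follow them. The genes were Csf1r, Csf2ra, Csf2rb, Csf2rb2, Csf3r, Il3ra, Il1r1, Il1rl1, Il18r1 and Il6ra. Their probe sets were all those whose array annotation named exactly 1 gene and that gene was on the list, which gave 15 of 45037 probe sets. These covered 9 of the 10 genes. Il1rl1, the receptor chain for IL-33, had no probe set under this rule and was not analysed here. Of the 15 probe sets, 13 passed a filter that left out the dimmest 40% of the array, and they covered 8 genes.

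The samples were CD34-negative KSL hematopoietic stem cells (HSC) and CD34-positive KSL multipotent progenitors (MPP), sorted from C57BL/6 mice. The KSL gate, which both groups share, takes c-Kit-positive cells without lineage markers that carry a further surface antigen. Each group had 2 samples that the labels call biological replicates. No label names the animals behind them, so a p-value here covers only the variation among these 4 arrays, which may be technical. RNA equivalent to 3000 cells was amplified in cycles that start from the 3' end and read on an Affymetrix Mouse Genome 430 2.0 array. The labels state no genetic change, treatment or age.

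The receptors fall into families by structure and partner. Csf1r, the receptor for M-CSF, is a tyrosine kinase that sustains monocytes and macrophages. Csf2ra, Il3ra, Csf3r and Il6ra belong to the class I cytokine receptors, which have no enzyme of their own and signal through Janus kinases. Csf2ra binds GM-CSF and Il3ra binds IL-3, and each needs a beta chain. Csf2rb encodes the common beta chain, and mice carry a close copy beside it, Csf2rb2, which serves IL-3 alone. Csf3r pairs with itself to receive G-CSF, and Il6ra joins gp130, encoded by Il6st. Il1r1, Il1rl1 and Il18r1 are neighbours in the genome. They carry a Toll/IL-1 receptor domain inside the cell, and pair with Il1rap or, for IL-18, with Il18rap.

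The promoters are shown because PU.1 and C/EBP factors are known regulators of myeloid receptor genes. RefSeq promoters (GRCm38.p6, 250 bases before to 50 after each start) were at hand for 8 of the 10 genes, with 12 starts in all. Csf1r and Csf2rb, both called lower in HSC below, had no promoter at hand. The 8 include Il1rl1 and Il3ra, which had no tested probe set. The 250 bases before the start are printed 5' to 3' for Csf3r and Il1r1, whose transcripts were lower in HSC, and for Csf2ra and Csf2rb2, which lay on the other side of 0. Capitals mark the PU.1 core GAGGAA or its reverse TTCCTC, and in Il1r1 the C/EBP motif TTNNGNAAT or its reverse ATTNCNNAA.
Csf3r, chr4:126024409-126024658, plus strand: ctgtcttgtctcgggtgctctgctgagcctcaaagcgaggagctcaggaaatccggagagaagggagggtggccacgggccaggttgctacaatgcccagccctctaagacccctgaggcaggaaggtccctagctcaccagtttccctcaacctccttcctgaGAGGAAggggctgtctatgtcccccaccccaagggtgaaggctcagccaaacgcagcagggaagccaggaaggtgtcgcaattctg
Il1r1 first start, chr1:40224830-40225079, plus strand: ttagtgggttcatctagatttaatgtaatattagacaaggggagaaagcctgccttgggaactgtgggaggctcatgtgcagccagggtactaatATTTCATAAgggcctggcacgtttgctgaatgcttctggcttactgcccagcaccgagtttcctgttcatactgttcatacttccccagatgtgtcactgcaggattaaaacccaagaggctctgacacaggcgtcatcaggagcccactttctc
Il1r1 second start, chr1:40266336-40266585, plus strand: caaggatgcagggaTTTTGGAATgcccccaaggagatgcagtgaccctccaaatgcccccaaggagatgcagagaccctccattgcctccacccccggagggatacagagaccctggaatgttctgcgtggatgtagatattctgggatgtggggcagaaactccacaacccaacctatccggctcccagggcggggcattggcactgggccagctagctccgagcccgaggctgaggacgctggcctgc
Csf2ra, chr19:61228419-61228668, minus strand: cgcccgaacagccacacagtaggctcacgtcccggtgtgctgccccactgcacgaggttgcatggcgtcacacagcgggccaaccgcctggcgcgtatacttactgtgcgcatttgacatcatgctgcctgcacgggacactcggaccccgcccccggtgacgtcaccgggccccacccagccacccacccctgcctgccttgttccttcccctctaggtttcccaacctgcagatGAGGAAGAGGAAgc
Csf2rb2, chr15:78305722-78305971, minus strand: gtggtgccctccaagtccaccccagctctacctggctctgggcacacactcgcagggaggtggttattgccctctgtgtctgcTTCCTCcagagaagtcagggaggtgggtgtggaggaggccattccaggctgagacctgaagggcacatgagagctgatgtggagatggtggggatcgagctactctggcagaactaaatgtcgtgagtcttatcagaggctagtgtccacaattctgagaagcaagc

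On both strands of the whole windows of 300 bases, the PU.1 core was found in 6 of the 12 receptor promoters, against 28.3% of 32851 promoters in the table. The C/EBP motif was in 3 of 12, from 2 genes, against 11.5%. The RUNX motif TGTGGT was in 2 of 12 (16.8% of all promoters). The GATA motif AGATAA was in 3 of 12, from 2 genes (11.2% of all promoters). Some genes had several starts and windows of Il18r1 overlap, so the 12 promoters are not separate genes. Csf2ra held 2 adjacent PU.1 cores and Csf2rb2 also held 2, the second past the start. Csf3r held 1 and neither start of Il1r1 held any. The PU.1 core was thus found in Csf3r, lower in HSC. It was also found in genes that were not called: Csf2ra, Csf2rb2, Il6ra and, at 1 of its starts, Il18r1. Il1rl1, which was not analysed, held it at 1 start. Whether it bears on expression was not tested. A match of letters is a description of the window and no evidence of binding.

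The arrays had each been scaled to a common mean, with median intensities of 21.3 to 26.9 in arbitrary units. As a measure of background, the highest signal among 27 bacterial control probe sets was taken as a floor (16.7 to 16.9 units on the HSC arrays, 13.6 to 14.9 on the MPP arrays). The sort labels were borne out at the RNA level: 9 of 10 tested stem cell markers were higher in HSC, and Cd34, Flt3 and Cd48 were lower. HSC replicate 2 stood apart in the ratio of 3' to 5' actin signal, which was 9.42 there and 4.99 to 5.26 on the other arrays, so values without it are given below. Across all genes, 13.6% of 12382 were called at a Benjamini-Hochberg adjusted p under 0.05, 7.71% higher in HSC and 5.90% lower.

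Of the 8 receptor genes tested, each by its brightest probe set, 4 were lower in HSC (Il1r1, Csf1r, Csf3r and Csf2rb), none was called higher, and 4 were not called (limma). The share called lower across all genes tested was 5.90%. Of the 13 probe sets tested, 5 were called lower, against 4.65% of 27022, and 0 higher, against 5.96%. Among the 5, Il1r1 1448950_at and Csf1r 1419873_s_at passed the filter only through MPP. The counts of genes and probe sets called lower include such members, so they are a description and no test of the set. HSC and MPP values did not overlap for 7 of the 8 genes, against 58.7% of all genes, and for 11 of the 13 probe sets, against 54.6%, so lack of overlap alone says little with 2 arrays a group. The median log2 difference of the 8 genes was -0.76, against 0.098 over all genes tested. The set did not move as a whole, since Csf2ra and Csf2rb2 had positive differences without a call.

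**Figure D1:**
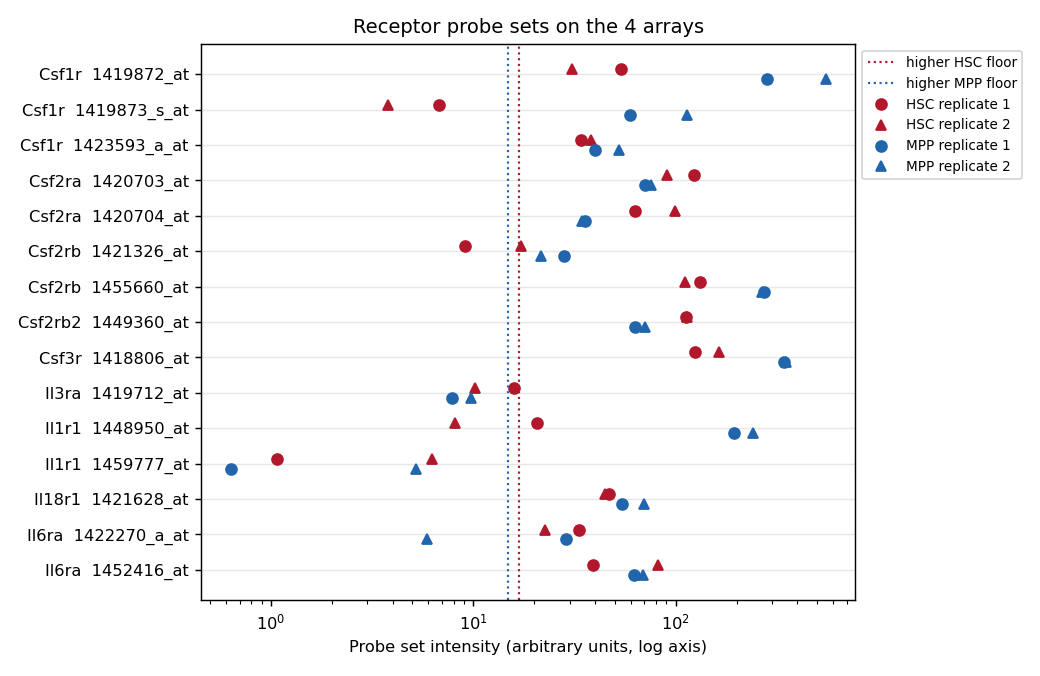
Intensity of each receptor probe set on each array, on a log axis in arbitrary units, with dotted lines at the higher floor of each group. Il1r1 on 1448950_at, Csf1r on 1419872_at, Csf3r and Csf2rb on 1455660_at have both HSC points well left of both MPP points, while Csf2ra and Csf2rb2 have them on the right.

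The IL-1 receptor gene had the largest fitted difference of the set. Il1r1 on probe set 1448950_at read 20.6 and 8.14 units on HSC replicates 1 and 2 and 194 and 240 on MPP replicates 1 and 2. Both MPP arrays were far above both HSC arrays, and only 1 of the 2 HSC arrays was above the floor. The means were 14.4 ± 8.82 in HSC and 217 ± 32.7 in MPP (SD, n = 2 each), so the HSC mean was itself under the floor and the probe set passed the filter through MPP. With HSC replicate 2 set at its floor, HSC were lower by at least 11.6-fold (mean log2 intensities). The fit took the values as measured, on the log2(intensity + 6.01) scale, where differences of dim genes come out too small, and gave -3.51 (SE 0.34, limma adjusted p = 1.47e-04). A further Il1r1 probe set, 1459777_at, lay under the floor on all 4 arrays (0.635 to 6.24 units) and carried no information on the gene.

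Il18r1, a receptor gene of the same chromosomal neighbourhood, was not called. This binding chain for IL-18 read 46.7 and 44.9 units in HSC and 54.3 and 69.7 in MPP. The groups did not overlap, but the gap was small beside the spread between the MPP arrays. The log2 difference was -0.38 with a 95% interval from -1.03 to 0.26 (limma adjusted p = 0.466), an interval that reaches just past a fall of 2-fold. Within each array, the log2 level of Il1r1 minus that of Il18r1 was 1.73 and 1.70 in MPP. In HSC it was -0.98 on replicate 1 and at most -1.17 on replicate 2, where Il1r1 was set at the floor, and the group means then differed by -2.79. On the measured values the two-sided exact permutation p was 0.333, the smallest that 2 arrays against 2 allow. In all, 6 such pairs were compared, of which 5 had this p, with 0.4 after Benjamini-Hochberg adjustment.

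Csf1r was the receptor with the next largest difference. On probe set 1419872_at, HSC replicates 1 and 2 read 54.0 and 30.9 units and MPP replicates 1 and 2 read 282 and 552. The groups were far apart, although the MPP arrays themselves differed, with replicate 2 the brighter. The means were 42.4 ± 16.3 and 417 ± 191 (SD, n = 2 each), with HSC 8.52-fold lower (difference -3.09 on the log2 scale, SE 0.34, limma adjusted p = 2.95e-04) and the gene at number 27 from the lowest of all genes. Probe set 1419873_s_at read 6.80 and 3.77 units in HSC, under the floor on both arrays, and 59.4 and 114 in MPP. Its difference is therefore given as a bound, at least 4.91-fold (mean log2 intensity in MPP against the mean log2 floor in HSC). The fit on the measured values gave -2.99 (SE 0.43, limma adjusted p = 0.00155). This probe set passed the filter only through MPP.

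The remaining Csf1r probe set, 1423593_a_at, disagreed with that pair. It read 34.2 and 38.3 units in HSC and 40.02 and 52.5 in MPP, all above the floor. Its log2 difference was -0.30 with a 95% interval from -1.01 to 0.41 (limma adjusted p = 0.621). That interval does not reach those of the other Csf1r probe sets (-3.84 to -2.34 and -3.94 to -2.03). With all 3 averaged, Csf1r was still called lower, with a log2 difference of -2.13 (adjusted p = 0.00276). The annotation does not say which transcripts each probe set reads, and why they differ was not tested.

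Csf3r, the receptor for the granulocyte growth factor G-CSF, was 2.37-fold lower in HSC. Its single probe set read 124 and 165 units in HSC and 343 and 351 in MPP. The MPP arrays lay close together and the HSC arrays were both at less than 0.5 of that level. The log2 difference was -1.24 (SE 0.21, limma adjusted p = 0.00390). Set against Csf2rb within each array, log2 Csf3r stood at -0.081 and 0.54 in HSC and 0.31 and 0.38 in MPP, so the groups overlapped (two-sided exact permutation p = 1). With 2 arrays a group this comparison cannot pass a threshold and does not show that the pair changed alike.

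Of the chains that bind GM-CSF and IL-3, Csf2rb was lower in HSC and none was called higher. Csf2rb, the common beta chain, read 132 and 111 units in HSC on 1455660_at and 275 and 269 in MPP. HSC were 2.19-fold lower, on both arrays (difference -1.13 on the log2 scale, SE 0.21, limma adjusted p = 0.00612). A dimmer Csf2rb probe set, 1421326_at, read 9.12 and 17.3 units in HSC and 27.9 and 21.6 in MPP. It lay on the same side, at -0.71, without a call (adjusted p = 0.383), and only 1 of the 2 HSC arrays was above the floor.

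Csf2rb2, the IL-3-specific copy, read 113 and 113 units in HSC and 63.3 and 70.4 in MPP. HSC were higher on both arrays, with a log2 difference of 0.71 and a 95% interval from 0.17 to 1.25, but the adjusted p of 0.0961 (limma) missed the threshold. The value also has to be read against a median shift of 0.12 among probe sets of its level. Within each array, log2 Csf2rb minus log2 Csf2rb2 was 0.21 and -0.027 in HSC and 2.02 and 1.84 in MPP. The balance of the adjacent beta chain genes thus differed by 1.84 on the log2 scale between the groups, far more than the spread within either (SD 0.17 in HSC and 0.12 in MPP, n = 2 each; two-sided exact permutation p = 0.333, the smallest possible). Levels of different probe sets cannot be compared, so only this shift is read. A probe set assigned jointly to Csf2rb and Csf2rb2 was under the floor on all 4 arrays (2.24 to 7.79 units). Whether any of these probe sets reads both copies was not tested.

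Csf2ra, the alpha chain that makes the receptor specific for GM-CSF, lay on the same side as Csf2rb2. On 1420703_at it read 123 and 90.5 units in HSC and 70.8 and 75.4 in MPP, differing by 0.50 on the log2 scale (SE 0.26, limma adjusted p = 0.273). On 1420704_at it read 63.0 and 98.9 in HSC and 35.7 and 34.3 in MPP, a difference of 1.05 (SE 0.31, adjusted p = 0.0582). HSC were above MPP on both probe sets and all 4 arrays, yet neither passed the threshold. The second differed by 1.36 on the log2 scale without HSC replicate 1. In a limma fit over genes, each given the mean of its tested probe sets, Csf2ra was called higher in HSC (0.78, adjusted p = 0.0358). Csf2rb2 was called too (0.71, adjusted p = 0.0398). It has 1 tested probe set, so nothing was averaged and its difference was that of the main fit. Both genes sat at the edge of the test. Log2 Csf2rb minus log2 Csf2ra was 0.089 and 0.28 in HSC and 1.87 and 1.75 in MPP.

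**Figure D2:**
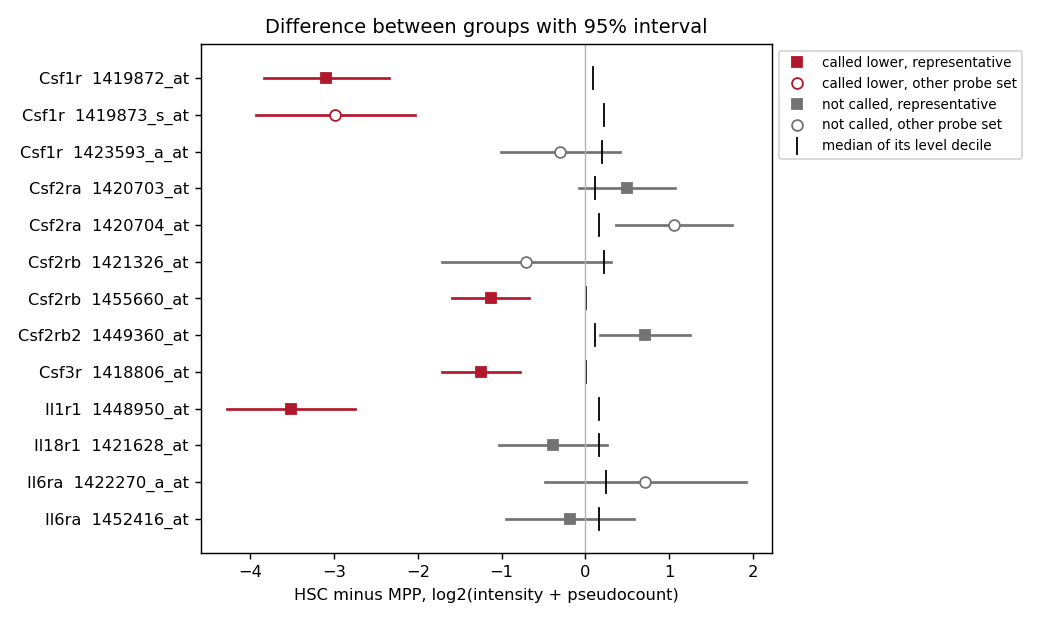
Log2 difference between HSC and MPP for each of the 13 tested probe sets, with 95% intervals from limma and a black tick at the median difference of all probe sets in the same decile of mean level. The 5 red probe sets, of Il1r1, Csf1r, Csf3r and Csf2rb, have intervals that end at -0.67 or lower, and those of Csf2rb2 and Csf2ra 1420704_at lie above 0 without a call.

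**Figure D3:**
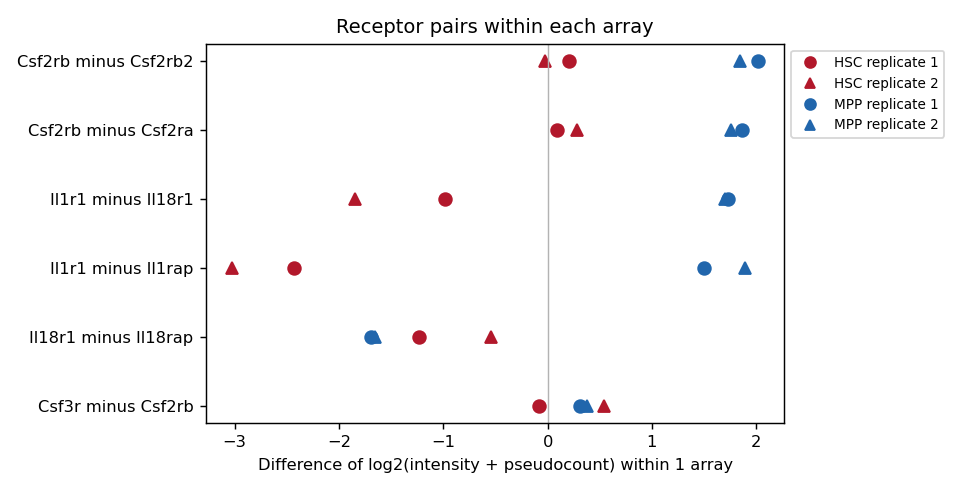
Difference of log2(intensity + pseudocount) between the genes of a pair within each of the 4 arrays. For Csf2rb minus Csf2rb2 the HSC arrays lie at 0.21 and -0.027 and the MPP arrays at 2.02 and 1.84, whereas for Csf3r minus Csf2rb the groups overlap. Il1r1 was under the floor on HSC replicate 2, and its points there are drawn at the measured value. With Il1r1 set at the floor, the upper bounds there are -1.17 against Il18r1 and -2.34 against Il1rap.

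Il3ra and Il6ra gave little to compare. Il3ra, the IL-3-specific alpha chain, read 15.9 and 10.3 units in HSC and 7.87 and 9.78 in MPP, under the floor on all 4 arrays, so no difference was estimated. Il6ra, the IL-6 binding chain, read 39.0 and 82.3 units in HSC and 62.0 and 68.8 in MPP on 1452416_at. The HSC arrays lay on either side of both MPP arrays, and the log2 difference was -0.18 with a 95% interval from -0.94 to 0.59 (limma adjusted p = 0.7997). It became 0.31 without HSC replicate 1. A dimmer Il6ra probe set, 1422270_a_at, read 33.2 and 22.6 in HSC and 28.9 and 5.91 in MPP, also with overlap (0.72, adjusted p = 0.462), and was -0.058 without MPP replicate 2. No direction can be given for Il6ra.

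The 4 genes called lower stayed lower in HSC with any single array left out. Without HSC replicate 2, the array with the high actin ratio, Il1r1 differed by -3.06 and Csf1r by -2.74 on the log2 scale. Csf3r then differed by -1.44 and Csf2rb by -1.01. Such a fit has no measure of spread in the group left with 1 array, so its adjusted p adds no support. Equal array medians, which move the median of all probe sets from 0.11 to -0.13, left the same genes called, with Csf2ra and Csf2rb2 still positive at 0.27 and 0.48. Csf3r and Csf2rb lost their calls when the prior variance had no trend with level (adjusted p = 0.0610 and 0.0629). Il1r1 and Csf1r, by the brightest probe set or the mean of those tested, were called in every setting with no array left out. The Csf1r probe set 1423593_a_at was called in none.

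**Figure D4:**
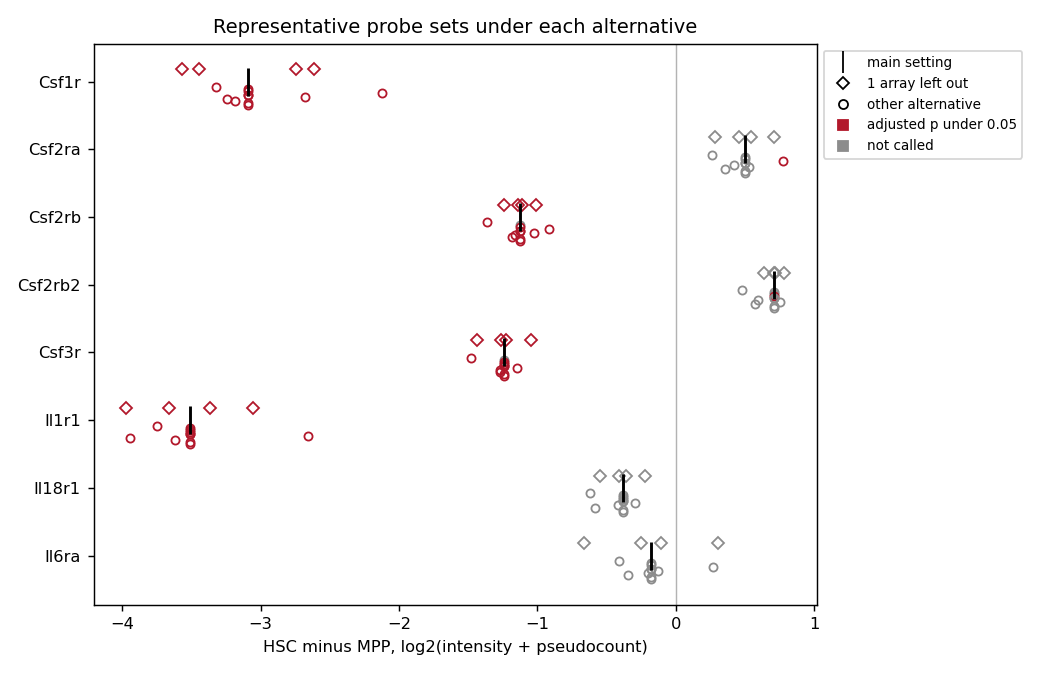
Log2 difference between HSC and MPP of the 8 representative probe sets in the main setting (black bar) and under each alternative, with red symbols where the adjusted p was under 0.05. Il1r1 and Csf1r stay below -2 throughout, Csf3r and Csf2rb lie between -1.48 and -0.92, and Il6ra falls on both sides of 0.

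The ligands of these receptors were mostly not above background. Of 10 ligand genes, Csf2, Csf3, Il3, Il1a, Il33 and Il6 were at or under the floor on all 4 arrays. Of the 4 tested, 1 was higher (7.71% of all genes were). Il18, which encodes the ligand of Il18r1, was higher in HSC with 382 and 342 units against 189 and 244 in MPP (log2 difference 0.73, SE 0.20, limma adjusted p = 0.0438). It lost that call in 7 of 15 alternatives, among them equal array medians (0.50, adjusted p = 0.160) and the omission of MPP replicate 1 (0.55, 0.322), of MPP replicate 2 (0.91, 0.0721) or of HSC replicate 1 (0.65, 0.0797). Csf1, the ligand of Csf1r, read 50.8 and 65.4 units in HSC and 34.2 and 34.7 in MPP and was not called (0.66, adjusted p = 0.227). Il1b and Il34 were not called either. The median log2 difference of the 4 was 0.51.

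Among 7 tested partner, decoy and soluble chains, 1 was higher and 1 lower in HSC, against 7.71% and 5.90% of all genes tested, with a median log2 difference of 0.43. Il1rap, the accessory chain that Il1r1 needs, read 138 and 109 units in HSC and 64.5 and 60.4 in MPP. The direction was opposite to that of Il1r1, with HSC higher by 0.91 on the log2 scale (SE 0.25, limma adjusted p = 0.0445). Over the mean of all tested Il1rap probe sets the difference was 0.12 without a call (adjusted p = 0.871). In all, 8 of 15 alternatives ended the Il1rap call, among them equal array medians (adjusted p = 0.120) and the omission of MPP replicate 1 (0.133), of MPP replicate 2 (0.195) or of HSC replicate 1 (0.122). Il18rap, the signalling chain of the IL-18 receptor, read 118 and 68.0 in HSC and 190 and 232 in MPP, a difference of -1.17 (SE 0.28, adjusted p = 0.0217). It lost its call in 4 of 15 alternatives: over the mean of its probe sets (-0.64, adjusted p = 0.124), without MPP replicate 2 (-1.03, adjusted p = 0.126), without the trend (0.120) and with no filter (0.0656). Il6st, which encodes gp130, read 134 and 224 in HSC and 109 and 90.3 in MPP and was not called (0.77, adjusted p = 0.107).

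Among signalling genes inside the cell, the shares called were near those of all genes, of which 7.71% were higher and 5.90% lower, so the counts are no result about these lists. Of 11 tested adaptors and kinases of the IL-1 receptor family, 1 was called (2 without HSC replicate 2), and the median log2 difference was 0.23. Irak3, a kinase-dead member that restrains IL-1 and Toll-like receptor signals, was higher in HSC with 457 and 351 units against 152 and 94.8 (log2 difference 1.69, SE 0.25, limma adjusted p = 0.00199). Myd88, Irak1, Traf6 and the others had differences between -0.058 and 0.68 without a call. Of 18 tested genes of colony-stimulating factor and IL-6 receptor signalling, 2 rose and none fell, with a median of 0.071. Without MPP replicate 1 or MPP replicate 2, 1 rose, and without HSC replicate 1, 2 fell. Cish, a feedback inhibitor induced by STAT5, read 401 and 313 units in HSC and 122 and 147 in MPP (1.37, SE 0.21, adjusted p = 0.00261). Jak2, the kinase bound to Csf2rb, read 873 and 846 in HSC and 457 and 467 in MPP (0.89, SE 0.16, adjusted p = 0.00592), and missed the threshold once either MPP array was left out (adjusted p = 0.0531 and 0.0503). Cish, Irak3 and Jak2 all lost their calls without a trend in the prior variance (adjusted p = 0.0515, 0.0524 and 0.0932), which left 0 genes called in both lists.

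Other cytokine receptors of blood cells moved both ways. Of 22 tested, 5 were higher in HSC (Ghr, Tek, Il21r, Kit and Il27ra) and 4 lower (Flt3, Il10rb, Il7r and Ifnar2), against 7.71% and 5.90% of all genes, with a median log2 difference of 0.12. Ghr, the growth hormone receptor, read 339 and 380 units in HSC and 55.9 and 27.2 in MPP (3.01, SE 0.30, limma adjusted p = 1.54e-04). Il10rb, a shared chain of the IL-10 family, read 207 and 230 in HSC and 415 and 396 in MPP (-0.87, SE 0.18, adjusted p = 0.0128). Il10rb lost its call once MPP replicate 1 or MPP replicate 2 was left out (adjusted p = 0.0962 and 0.0762) and without the trend (0.101). Tek, the angiopoietin receptor, read 174 and 210 units in HSC and 56.2 and 56.1 in MPP. Flt3, a receptor of early progenitors, read 166 and 69.7 in HSC and 1171 and 1467 in MPP. The number higher was 2 with equal array medians, without the trend, with no filter, without _x_at, _s_at and _a_at probe sets or without MPP replicate 1. It was 3 with quantile normalization and without HSC replicate 1 or MPP replicate 2. The number lower was 2 with no filter or without MPP replicate 1, and 1 without the trend or without MPP replicate 2.

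**Figure D5:**
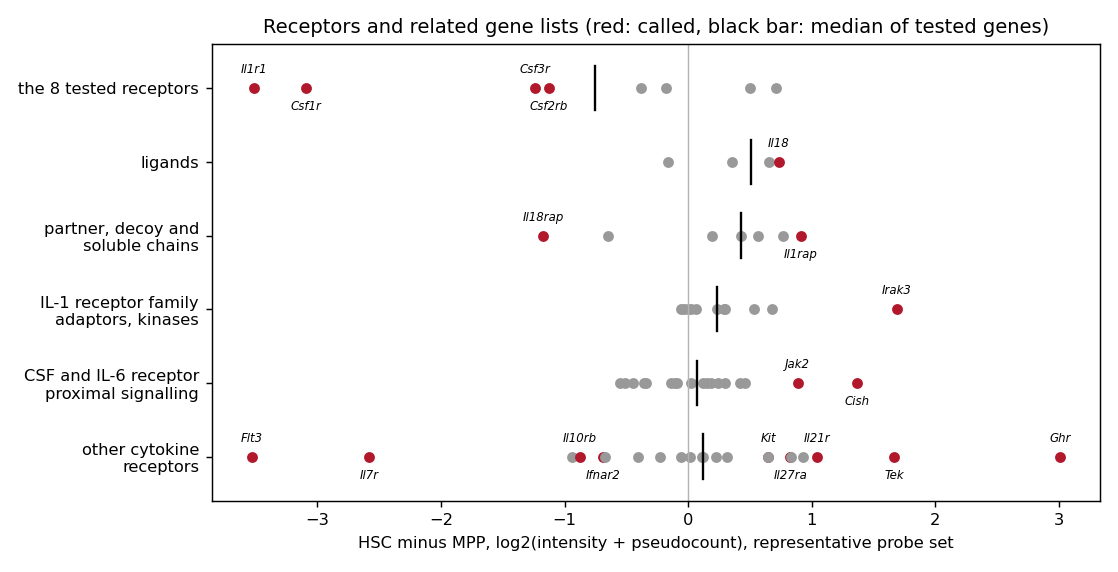
Log2 difference between HSC and MPP of each tested gene, by its brightest probe set, for the 8 receptors and 5 related lists, with called genes in red and named and a black bar at each median. The receptors have 4 red genes on the left and none on the right. Red genes among ligands and signalling genes are Il18, Irak3, Cish and Jak2, all on the right. These few calls are no result about those lists.

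Genes of early granulocyte and monocyte progenitors moved in the same direction as the called receptors. Of 5 tested (Mpo, Ctsg, Prtn3, Elane and Ms4a3), 3 were lower in HSC (5.90% of all genes were), and their summed signal was 1069 to 1584 units on the HSC arrays and 6909 to 8216 on the MPP arrays. Without Mpo, which added most to that gap, the sums were 995 to 1441 and 3042 to 3558. Of 13 monocyte and macrophage markers, 9 were tested and 1, Mpeg1, was lower, while 6 of the 9 had positive differences (median of the tested 0.33). C1qa, C1qc and Marco were under the floor on all arrays. The sums were 283 to 330 units in HSC and 408 to 688 in MPP, a gap that came from Mpeg1 (4.53 and 14.5 in HSC, 143 and 413 in MPP). Without it they were 278 to 316 in HSC and 265 to 275 in MPP. None of 3 tested mature neutrophil markers was called, Camp and Lcn2 were under the floor throughout, and the sums were 89.9 to 135 in HSC and 95.4 to 132 in MPP. All 4 tested mast cell and basophil markers had negative differences (median of the tested -0.76), and of these Cpa3 was called lower. For Mcpt8 the groups overlapped (4.96 and 97.6 units in HSC, 28.5 and 42.7 in MPP). Of markers in this list that did not pass the filter, Cma1, Mcpt4, Gzmb and Tpsab1 had positive differences. Fcer1a and Tpsb2 had negative ones. The sums were 257 to 264 in HSC and 318 to 371 in MPP. Without Cpa3 the sums overlapped (167 to 179 and 149 to 191). Of T, NK and innate lymphoid cell markers, Cd3d, Cd3e, Cd3g and Ncr1 were under the floor on all arrays, while Rora and Gata3 were higher in HSC among 3 tested. Il2rb and Cd5 of the same list did not pass the filter and lay on the other side. These genes were under the floor on both HSC arrays and above it on both MPP arrays. As bounds, HSC were lower by at least 1.196-fold for Il2rb and 1.19-fold for Cd5. None of 4 tested B cell markers and 2 tested dendritic cell markers was called, and none of 4 eosinophil markers passed the filter. The part of progenitor, monocyte or mast cell genes in the receptor differences was not tested. In these bulk samples fewer cells with a receptor and less receptor RNA per cell cannot be told apart.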

How the data were processed

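The deposited values of 2 HSC and 2 MPP arrays were probe set intensities in arbitrary units and not logarithms. The software used was not given in the sources used here. Each array had a 2% trimmed mean of about 100.0. Detection calls were not used here.

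After 64 controls were dropped, 34945 probe sets named 1 gene, 932 named several and 9160 named none. Of the first, 34741 matched RefSeq GRCm38.p6 by gene identifier and took its symbol. Intensities were transformed to log2 after adding 6.01, which is 0.25 of the median of all values. No normalization was added, because array medians on that scale lay within 0.271 (limit 0.5). The dimmest 40% of probe sets by mean level were dropped. HSC and MPP were compared over 27022 probe sets in limma 3.58.1 (R 4.3.3) by lmFit and eBayes with a trend, two-sided, without covariates and with Benjamini-Hochberg adjustment. There were 2 residual and 8.48 prior degrees of freedom. The fit was checked on simulated data with the same spread for all probe sets and no filter. That check does not test the trend or the filter. Each gene took the value of its brightest tested probe set. The number of arrays limits the precision.

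All receptor probe sets were named, and of each related list up to 2 called genes per direction (all, with 5 or fewer calls). Other list genes are named for their role, chosen after their values were seen. The receptors and lists were chosen with earlier results of these data known. Same-numbered arrays did not deviate together (r = 0.027 over 27022 probe sets), and no label ties them. Some genes of the related lists were not analysed here. Protein sequences were not used here.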

Additional observations from a re-analysis of the deposited data

How the results depend on the processing

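The 13 tested receptor probe sets were refitted under up to 15 alternatives each, 183 values in all, of which 173 kept direction and side of the threshold, 2 lost a call, 5 gained one and 3 changed sign. The count of receptor genes lower in HSC stayed at 4 except without a trend in the prior variance, where it was 2 (3 probe sets in place of 5, and Il1r1 and Csf1r as genes). Receptor genes higher in HSC numbered 2 over the mean of all tested probe sets of a gene and 0 in the other settings. Of these 2, Csf2rb2 has a single tested probe set, so its difference was unchanged. With all arrays kept, receptor probe sets higher in HSC numbered 1 with the lowest 60% left out, and 1 with the replicate number as a block, in place of 0. In both settings it was Csf2ra 1420704_at (adjusted p = 0.0457 and 0.0159). That probe set differed by 1.36 on the log2 scale without HSC replicate 1. Fits with 1 array left out have no measure of spread in the group left with 1 array, so their calls add no support. Without MPP replicate 2, Csf1r 1419873_s_at was under the filter and had no value. The sign changes were all of Il6ra, which was never called: 1452416_at went to 0.31 without HSC replicate 1 and to 0.27 over the mean of its probe sets, and 1422270_a_at to -0.058 without MPP replicate 2 (ranges over the arrays left out -0.67 to 0.31 and -0.058 to 1.49). The cause was not tested. The replicate block left 4 genes lower and 0 higher, and over all probe sets raised the calls from 1611 higher and 1257 lower to 2525 and 1833; it leaves 1 residual degree of freedom, and the numbers are not known to pair the samples. With equal array medians the calls over all probe sets were 1020 higher and 2379 lower. Without the trend they were 633 and 374, and with no filter 917 and 780. Signals near the floor (Il3ra, Il1r1 in HSC, Csf2rb 1421326_at) limit what the arrays can measure.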
